A study of Mus musculus with 9 samples.

Results

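Collagen genes were taken as every gene of the deposited table whose symbol reads Col, a number, a and a number, which gave 44 of the 48820 genes listed. Of these, 37 had a mean of at least 0.5 FPKM (fragments scaled to the length of the transcript and to the fragments mapped in the heart) over the 9 hearts and were compared between stages, among 15565 genes that passed the same limit. The 37 comprised 11 of 11 fibrillar, 8 of 8 basement membrane and 3 of 3 network collagens, and 15 of 22 others. The hearts came from untreated wild-type C57BL/6J mice, with 3 biological replicates each at embryonic day 18.5 (E18.5d, the foetal hearts), postnatal day 1 (P1d) and postnatal day 7 (P7d), and the labels gave all 9 as male. Total RNA of the heart was sequenced, and the study asked how the heart changes around birth.

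Collagens are extracellular proteins built from 3 chains wound into a triple helix. Fibrillar collagens form the cables that carry tension, basement membrane collagens form the sheet on which muscle and endothelial cells rest, network collagens form lattices, and the others coat fibrils, form beaded filaments or span the cell membrane. In the heart, fibroblasts make most of the fibrillar collagen, and the matrix around each muscle cell is laid down and remodelled as the heart takes over its load after birth.

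Several chains that join in 1 molecule are encoded by neighbouring genes read in opposite directions, and the sequences between or upstream of their starts are shown because the levels of such pairs are compared below. In GRCm38 with the GENCODE M21 annotation, Col4a1 (minus strand) and Col4a2 (plus strand) shared 22 bases at their starts, chr8:11312805-11312826, which are exonic in both. Col4a4 (minus strand) and Col4a3 (plus strand) were separated by 71 bases, chr1:82586850-82586920, outside both transcripts. Col4a6 and Col4a5 on the X chromosome lay 1308 bases apart. Both sequences are written on the minus strand. Capitals mark a match on either strand to TATAAA (the TATA box), CCAAT or GGGCGG (the GC box), 3 common promoter motifs that were the only motifs searched and whose matches do not overlap in the sequences printed.
Col4a1 and Col4a2 shared start: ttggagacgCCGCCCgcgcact
Col4a4 and Col4a3 gap: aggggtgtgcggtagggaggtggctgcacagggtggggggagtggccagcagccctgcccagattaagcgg
The 250 bases upstream of the RefSeq start (GRCm38.p6) are given for the most abundant collagen (Col3a1, chr1:45311288-45311537, plus strand), for the collagen with the largest rise (Col15a1, chr4:47207762-47208011, plus strand) and for one that fell after P1d (Col23a1, chr11:51289670-51289919, plus strand).
Col3a1: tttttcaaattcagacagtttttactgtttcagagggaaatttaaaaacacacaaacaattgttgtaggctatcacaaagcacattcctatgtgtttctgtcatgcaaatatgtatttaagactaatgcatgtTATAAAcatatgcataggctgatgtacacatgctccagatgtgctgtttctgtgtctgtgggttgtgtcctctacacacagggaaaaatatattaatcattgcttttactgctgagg
Col15a1: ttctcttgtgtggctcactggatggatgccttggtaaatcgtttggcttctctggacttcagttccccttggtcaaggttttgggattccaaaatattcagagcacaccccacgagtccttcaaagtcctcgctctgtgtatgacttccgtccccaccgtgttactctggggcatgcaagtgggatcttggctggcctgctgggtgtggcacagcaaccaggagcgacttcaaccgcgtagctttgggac
Col23a1: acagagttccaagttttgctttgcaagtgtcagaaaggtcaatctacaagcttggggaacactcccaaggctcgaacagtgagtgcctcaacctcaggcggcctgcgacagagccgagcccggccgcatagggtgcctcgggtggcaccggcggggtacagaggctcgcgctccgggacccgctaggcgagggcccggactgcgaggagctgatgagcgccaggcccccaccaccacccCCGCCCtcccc
RefSeq windows were matched for 35 of the 44 collagen genes, in 38 windows. TATAAA stood in 5 of the 38 windows, against 12.4% of 32851 windows of that length over all genes. CCAAT was found in 13 of the 38 (33.8% of all windows) and GGGCGG in 22 of the 38 (32.7% of all windows). The Col3a1 window held a TATAAA and had 35.2% G and C, the lowest of the 38, and the Col15a1 window held none of the 3 motifs. A match is a description of the letters and not a measured site.

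Before the levels are given, 3 facts on the hearts bear on them. In 4 hearts labelled male (E18.5d replicates 1 and 3, P7d replicates 2 and 3) Xist stood between 58.0 and 97.0 FPKM and Uty, Eif2s3y, Ddx3y and Kdm5d of the Y chromosome were all at 0, whereas the other 5 hearts had Xist at 0.11 FPKM or less. In 3 hearts (E18.5d replicates 1 and 2, P1d replicate 1) the airway gene Scgb3a2 stood at 53.2, 127 and 179 FPKM, against at most 1.00 in the others. P1d replicate 2 had the highest summed FPKM of the table, 1794160, against 1347981 to 1520448 in the others. Steps in the low values put the depth at about 24250000 to 42750000 fragments a heart. The cardiomyocyte markers, 8 of 8 above 0.5 FPKM, summed to at least 27232 FPKM in every heart.

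Collagen RNA was dominated by a few genes. Col3a1, Col4a1, Col1a2, Col1a1 and Col4a2 together held 69.9% ± 0.391 (SD, n = 3) of the summed collagen FPKM in E18.5d hearts, 72.2% ± 0.382 in P1d hearts and 73.9% ± 0.140 in P7d hearts. The 44 genes summed to 2870 ± 134 FPKM before birth, 2662 ± 339 at P1d and 3880 ± 52.3 at P7d. As a percent of the FPKM of all protein-coding nuclear genes these sums were 0.560 ± 0.0178, 0.524 ± 0.0449 and 0.852 ± 0.0167. The 3 P7d hearts lay above all others and the E18.5d and P1d hearts overlapped, and with 3 hearts against 3 an exact permutation test cannot give a p below 0.1. In whole hearts, more cells of a type and more RNA per cell cannot be told apart, so no level here is a level per fibroblast or per endothelial cell.

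Fibrillar collagens made up the largest class, at 1513 ± 66.1 FPKM (E18.5d), 1437 ± 261 on the first day (P1d) and 2129 ± 16.6 (P7d). Basement membrane collagens followed with 834 ± 46.8, 803 ± 29.4 and 1166 ± 62.4 FPKM. The other collagens summed to 518 ± 27.3, 418 ± 54.9 and 579.9 ± 5.62 FPKM, and the 3 network collagens to 4.15 ± 0.662, 3.63 ± 0.206 and 5.62 ± 0.208 FPKM. The share of the other collagens was 18.04% ± 0.139 at E18.5d and 14.9% ± 0.0849 at P7d, and no heart of the E18.5d group lay as low as any P7d heart.

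**Figure D1:**
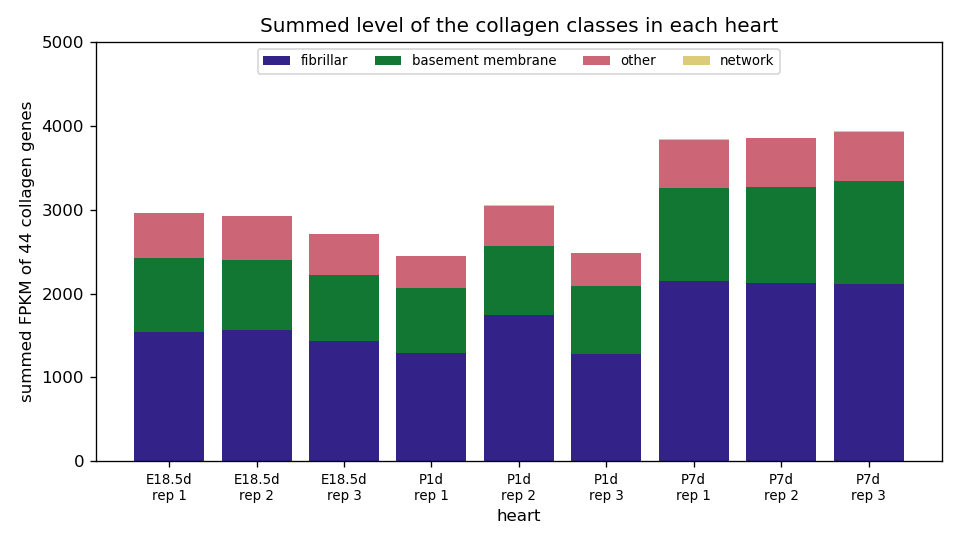
Summed FPKM of the 44 collagen genes in each of the 9 hearts (bars, 1 per heart), stacked by class; the network class is too small to be visible. The 3 P7d hearts sum to 3843 to 3940 FPKM and all other hearts to 2448 to 3054 FPKM.

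**Figure D2:**
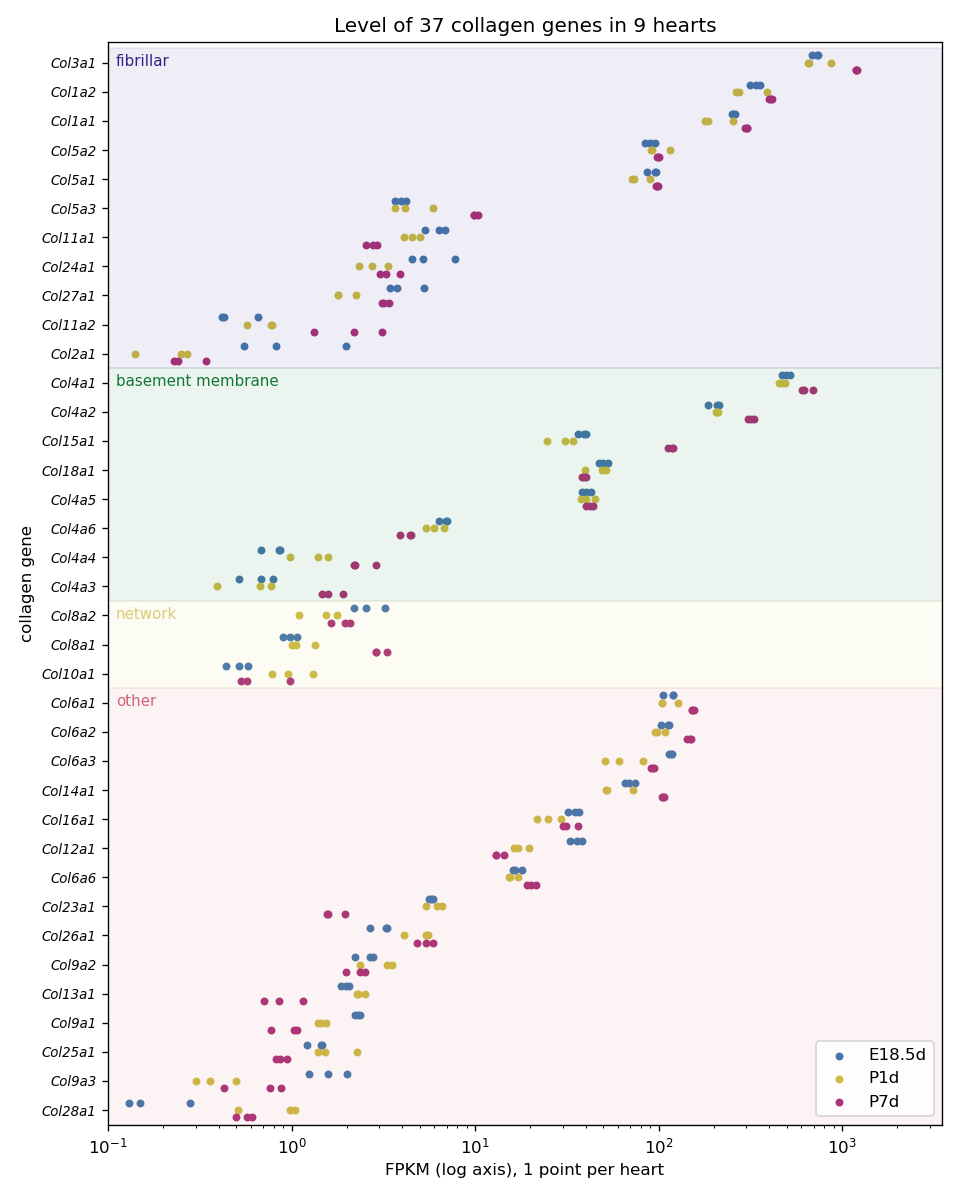
Level of each of the 37 collagen genes on a log FPKM axis, with 1 point per heart and colour by stage, ordered by mean within the 4 classes. Col3a1 lies highest, and Col15a1, Col5a3 and Col8a1 have their P7d points above all points of the other stages.

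Changes between stages were tested with limma on log2(FPKM + 1) across all 15565 genes, with 1 fit over the 9 hearts and Benjamini-Hochberg adjusted p under 0.05 as the threshold. Each log2 change below is on that scale and is given ± SE with 3 hearts a stage, and it understates the change of genes near or below 1 FPKM. The 3 comparisons share hearts and are not independent of one another. The median of all genes was itself below 0, by -0.06 (P1d against E18.5d), -0.09 (P7d against P1d) and -0.17 (P7d against E18.5d).

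Between E18.5d and P1d most collagens called were lower after birth, as were most of all genes called on the FPKM as deposited. Of the 37 genes, 4 rose and 12 fell, which is 43.2% called against 42.1% of all genes. Of the collagens 10.8% were higher against 16.7% of all genes, and 32.4% lower against 25.3%. The collagen share is near that background. The median collagen change was -0.07. In 16 of the 37 genes the hearts of the stages did not overlap, against 51.6% of all genes. Scaling the columns to an equal sum, which moved the median of all genes to -0.19, gave 2 collagens higher and 18 lower. Of all genes, 1230 were then higher and 4878 lower. Most of that sum is held by the structural RNAs named above. Scaling to an equal sum of protein-coding nuclear genes gave 2 and 13, with 2729 of all genes higher and 3652 lower. Centring by the median of ratios gave 4 collagens higher and 11 lower, with 3295 of all genes higher and 3235 lower. Quantile normalization also gave 4 and 11, with 3328 of all genes higher and 3217 lower. Leaving out the 3 hearts with airway RNA puts 1 foetal heart against 2 P1d hearts, with that heart assumed to vary like the other stages, and 3 of the 16 calls remained (Col12a1, Col24a1 and Col26a1), with 14.5% of all genes called. With Xist as a covariate 7 remained, Col12a1, Col24a1, Col27a1, Col6a3, Col9a3, Col26a1 and Col28a1, with 29.7% of all genes called.

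From P1d to P7d most collagens called were higher. Here 19 collagens rose and 7 fell, 70.3% called against 40.3% of all genes, with 51.4% higher against 13.9% and 18.9% lower against 26.4%. The median collagen change was 0.32. The hearts did not overlap in 26 of the 37 genes, against 51.0% of all genes. Leaving out the hearts with airway RNA, 3 hearts against 2, kept 18 of the 26 calls, with 25.5% of all genes called, and lost those of Col1a1, Col1a2, Col5a1, Col4a6, Col6a3, Col6a6, Col9a1 and Col16a1. With Xist as a covariate 21 remained, with 25.4% of all genes called, and Col1a2, Col5a1, Col6a3, Col16a1 and Col25a1 were lost.

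Over the whole interval, from E18.5d to P7d, 15 collagens rose and 10 fell, 67.6% called against 45.5% of all genes, with 40.5% higher against 11.5% and 27.0% lower against 34.0%. The median collagen change was 0.15. The hearts did not overlap in 33 of the 37 genes, against 59.4% of all genes. Centring by the median of ratios gave 20 collagens higher and 8 lower, with 3091 of all genes higher and 2904 lower. Col1a1, Col1a2, Col5a1, Col5a2 and Col4a5 then passed the threshold as higher. With Xist as a covariate 24 of the 25 calls remained (43.1% of all genes called), without that of Col28a1. Without the hearts with airway RNA, which leaves 1 foetal heart, 17 remained (20.5% of all genes called).

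The 5 hearts with Y-linked genes comprise 1 of E18.5d, 3 of P1d and 1 of P7d, so the P1d hearts alone give the spread in a fit on them. In that limma fit 0 of the 37 collagens passed in any comparison, and 2.24%, 0.231% and 0.726% of all genes did (P1d against E18.5d, P7d against P1d and P7d against E18.5d). An unadjusted p under 0.05 was found in 8, 19 and 13 of the 37, against 27.1%, 23.8% and 22.7% of all genes. A fit with so few hearts says nothing on whether the calls hold.

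**Figure D3:**
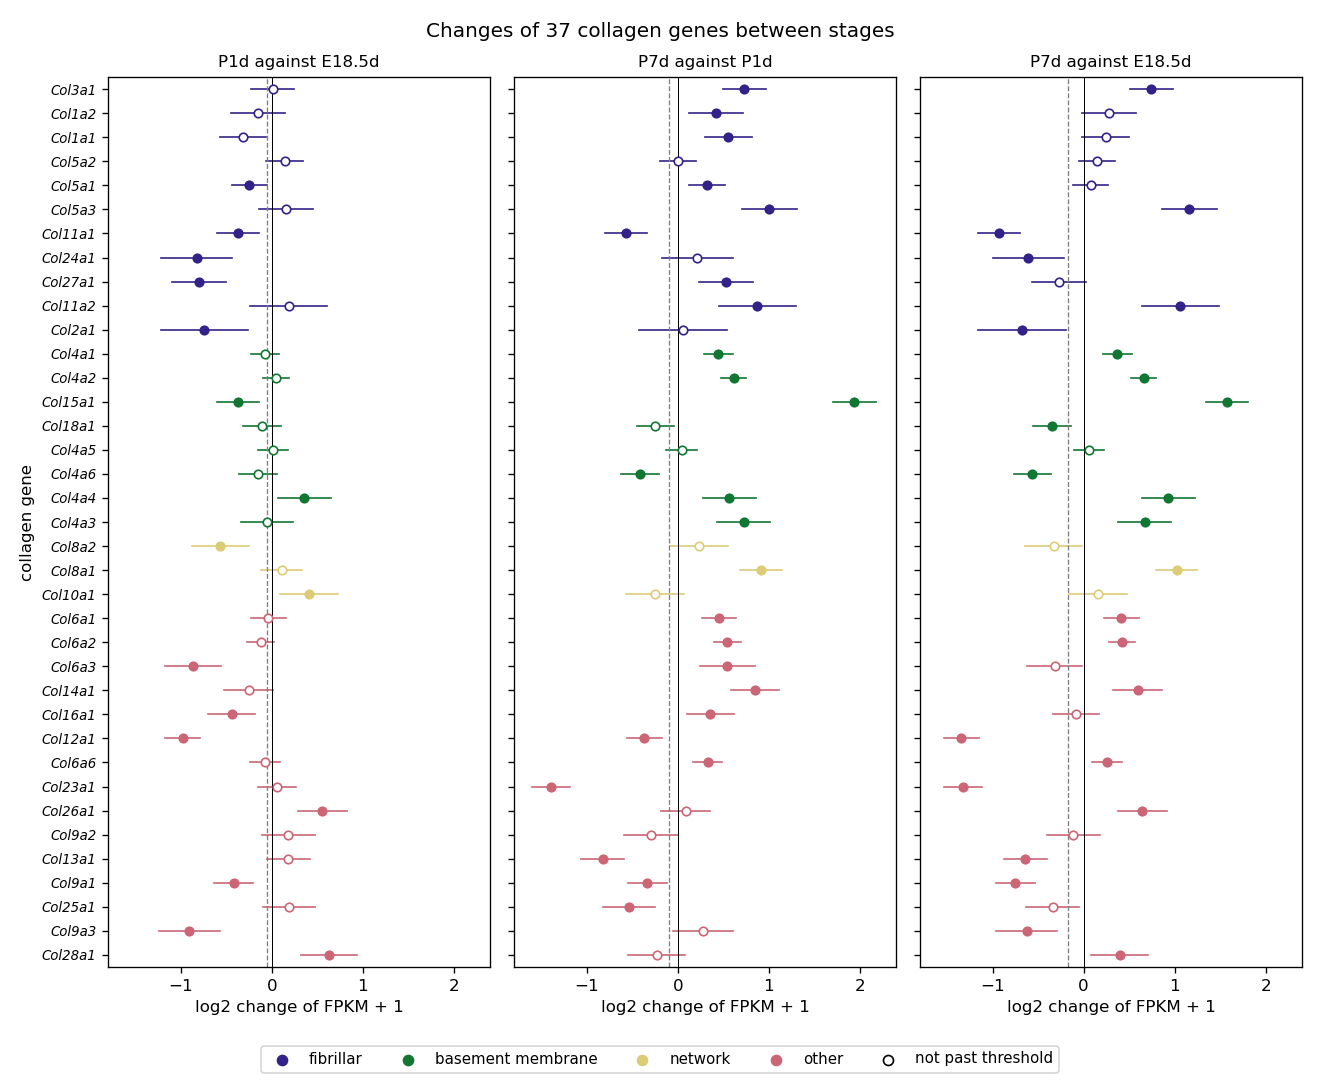
Change of each of the 37 collagen genes in the 3 comparisons, as limma's log2 change of FPKM + 1 with its 95% confidence interval, coloured by class; filled points pass the adjusted threshold and the dashed line is the median of all 15565 genes. On this scale Col15a1 has the largest rise at P7d and Col12a1 and Col23a1 the largest falls against E18.5d.

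Among the fibrillar collagens, 0 rose and 5 fell by P1d, 7 rose and 1 fell from P1d to P7d, and 3 rose and 3 fell from E18.5d to P7d, of 11. That is 45.5%, 72.7% and 54.5% called, against 42.1%, 40.3% and 45.5% of all genes, and the share by P1d is near that background. Col3a1, the single chain of type III collagen and the most abundant collagen RNA of the heart, was read at 730.3, 739.9 and 681 FPKM in the E18.5d hearts, at 650.4, 873 and 663 in the P1d hearts and at 1211, 1194 and 1197 in the P7d hearts. All 3 P7d hearts stood above the other 6, while E18.5d and P1d overlapped. Col3a1 rose from P1d to P7d (log2 change 0.73 ± 0.10, adjusted p = 0.00065) and from E18.5d to P7d (log2 change 0.74 ± 0.10, adjusted p = 0.000467), and its change by P1d did not pass (log2 change 0.01 ± 0.10, adjusted p = 0.945).

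Col1a1 and Col1a2 encode the chains of type I collagen, the main fibril of the heart's interstitium. Col1a1 was read at 253, 259 and 251 FPKM at E18.5d, 187, 255 and 179 at P1d and 304, 304 and 295 at P7d, and Col1a2 at 339, 357 and 316, 273, 391 and 263 and 412, 415 and 398. For both, P1d replicate 2 stood well above the other 2 P1d hearts. Both rose from P1d to P7d (Col1a1 log2 change 0.56 ± 0.11, adjusted p = 0.00443; Col1a2 log2 change 0.42 ± 0.13, adjusted p = 0.0299). The change of Col1a1 by P1d missed the threshold (log2 change -0.32 ± 0.11, adjusted p = 0.05035), and neither gene passed from E18.5d to P7d (Col1a1 log2 change 0.24 ± 0.11, adjusted p = 0.114; Col1a2 log2 change 0.28 ± 0.13, adjusted p = 0.118).

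Several of these type I calls turned on single hearts. Without P1d replicate 2 both genes were lower at P1d than at E18.5d (adjusted p = 0.000229 for Col1a1 and 0.00442 for Col1a2). They were also higher by P7d than in the foetal hearts (0.00232 and 0.00442). P1d replicate 2 enters that last comparison only through the spread shared by the fit. The SD of Col1a1 was 42.0 FPKM at P1d, against 4.17 at E18.5d and 5.08 at P7d. In a fit on only the E18.5d and P7d hearts both genes were called higher at P7d. The rise of Col1a2 from P1d to P7d was lost on leaving out any of P1d replicates 1 and 3 and P7d replicates 1, 2 and 3 (adjusted p up to 0.0977). Of the fibroblast markers, 8 of 8 detected, 5 rose and 0 fell from P1d to P7d, against 13.9% of all genes higher and 26.4% lower. Pdgfra, Tcf21 and Scara5 passed in neither comparison with P7d. Together the 8 fibroblast markers summed to 399 to 403 FPKM at E18.5d, to 345, 467 and 357 in P1d replicates 1, 2 and 3, and to 614 to 622 at P7d. Their part in the collagen changes was not tested.

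Type V collagen starts the assembly of type I fibrils, and it is built from the chains of 3 genes. Col5a3, the least abundant of them, was read at 3.65, 4.21 and 3.96 FPKM at E18.5d, 4.16, 5.92 and 3.64 at P1d and 9.81, 9.89 and 10.4 at P7d, so the P7d hearts lay above all others. It rose from P1d to P7d (log2 change 1.01 ± 0.13, adjusted p = 0.000441) and over the whole interval (log2 change 1.16 ± 0.13, adjusted p = 0.000145). Col5a1 fell by P1d (log2 change -0.25 ± 0.09, adjusted p = 0.0443) and rose again (log2 change 0.32 ± 0.09, adjusted p = 0.0152), with mean levels of 92.6 ± 5.47, 78.3 ± 10.01 and 97.6 ± 1.12 FPKM. Its fall was lost on leaving out any 1 heart other than E18.5d replicate 3 or P1d replicate 2 (adjusted p up to 0.128), and its rise without P1d replicate 1 (adjusted p = 0.0522). Col5a2 passed in no comparison (log2 change 0.15 ± 0.09, adjusted p = 0.211 from E18.5d to P7d), and lies 24614 bases from Col3a1, tail to tail, on chromosome 1.

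Type XI and type II chains are best known from cartilage. Col11a1 fell in every comparison, from 6.88, 6.33 and 5.31 FPKM at E18.5d through 4.99, 4.12 and 4.54 at P1d to 2.77, 2.54 and 2.92 at P7d (log2 change -0.93 ± 0.10, adjusted p = 0.000118 over the whole interval), and the groups did not overlap. Its partner chain Col11a2 moved the other way, with 0.43, 0.66 and 0.42 FPKM at E18.5d, 0.77, 0.57 and 0.78 at P1d and 1.33, 2.2 and 3.1 at P7d (log2 change 0.88 ± 0.19, adjusted p = 0.00551 from P1d to P7d and log2 change 1.06 ± 0.19, adjusted p = 0.00168 from E18.5d). The fall of Col11a1 by P1d (log2 change -0.37 ± 0.10, adjusted p = 0.0178) was lost without E18.5d replicate 1, E18.5d replicate 2 or P1d replicate 2 (adjusted p up to 0.0658).

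Col2a1, the chain of type II collagen and the member closest above the limit with Col28a1 (means of 0.537 and 0.531 FPKM, with Col7a1 just under it at 0.402), was read at 1.99, 0.82 and 0.55 FPKM at E18.5d, 0.25, 0.14 and 0.27 at P1d and 0.24, 0.34 and 0.23 at P7d. It was lower at both later stages (log2 change -0.74 ± 0.21, adjusted p = 0.0207 at P1d and log2 change -0.68 ± 0.21, adjusted p = 0.0274 at P7d), and the first E18.5d heart, 1 of the 3 with airway RNA, stood above the other 2. It passed the limit only through the E18.5d hearts, where it is high, and with no limit on the level the calls stood at adjusted p = 0.0375 and 0.0472. Without P1d replicate 2 the fall by P1d was lost (adjusted p = 0.0574), and without any 1 of the 3 P7d hearts the fall by P7d was lost (adjusted p up to 0.0717). The cartilage markers summed to 17.1 to 20.4 FPKM before birth, 15.6 to 23.1 at P1d and 11.02 to 11.95 at P7d. Of the 8 markers, 5 had a mean of at least 0.5 FPKM. By P7d 4 of these 5 were lower than before birth and 1, Comp, was higher, against 34.0% and 11.5% of all genes. Acan stood at means of 11.2, 11.5 and 5.31 FPKM, and the cartilage matrix genes Matn1 and Matn3 at 0.03 or less in every heart. The part of the cartilage markers was not tested.

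Col24a1 and Col27a1 are minor fibrillar chains. Col24a1 was read at 7.81, 4.53 and 5.22 FPKM at E18.5d, 3.35, 2.33 and 2.76 at P1d and 3.91, 3.05 and 3.28 at P7d, and Col27a1 at 3.75, 5.28 and 3.45, 1.78, 1.78 and 2.24 and 3.19, 3.12 and 3.41. Every E18.5d heart stood above every P1d heart for both. Col24a1 fell by P1d (log2 change -0.83 ± 0.17, adjusted p = 0.0045) and was still lower at P7d (log2 change -0.61 ± 0.17, adjusted p = 0.0179), the latter lost without P7d replicate 2 or 3 (adjusted p up to 0.0644) and under the median of ratios, quantile normalization and an equal sum of protein-coding nuclear genes. Col27a1 fell by P1d (log2 change -0.80 ± 0.13, adjusted p = 0.00126) and rose again by P7d (log2 change 0.53 ± 0.13, adjusted p = 0.011).

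Of the 8 basement membrane collagens, 1 rose and 1 fell by P1d, 5 rose and 1 fell from P1d to P7d, and 5 rose and 2 fell over the whole interval, which is 2, 6 and 7 of 8 called against the same 42.1%, 40.3% and 45.5% of all genes. Col4a1 and Col4a2, whose chains form the type IV network of nearly all basement membranes, are the pair with the shared start shown above. Col4a1 was read at 522, 493 and 468 FPKM at E18.5d, 454, 486 and 467 at P1d and 606, 617 and 697 at P7d, and Col4a2 at 214, 207 and 186, 205, 209 and 211 and 307, 319 and 333. Both had all P7d hearts above all others and rose from P1d to P7d (Col4a1 log2 change 0.44 ± 0.07, adjusted p = 0.00116; Col4a2 log2 change 0.61 ± 0.06, adjusted p = 0.000121). Against E18.5d both were also higher at P7d (Col4a1 log2 change 0.37 ± 0.07, adjusted p = 0.00248; Col4a2 log2 change 0.66 ± 0.06, adjusted p = 5.24e-05).

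The pair Col4a4 and Col4a3, separated by the 71 bases shown above, encodes chains of the network best known from the kidney filter and was read at low levels. Col4a3 stood at 0.79, 0.68 and 0.52 FPKM (E18.5d), 0.67, 0.77 and 0.39 (P1d) and 1.58, 1.47 and 1.9 (P7d), and Col4a4 at 0.68, 0.85 and 0.87, 1.58, 1.4 and 0.98 and 2.19, 2.23 and 2.88. Both rose from P1d to P7d (Col4a3 log2 change 0.72 ± 0.13, adjusted p = 0.00212; Col4a4 log2 change 0.57 ± 0.13, adjusted p = 0.0074) and from E18.5d to P7d (Col4a3 log2 change 0.67 ± 0.13, adjusted p = 0.00253; Col4a4 log2 change 0.93 ± 0.13, adjusted p = 0.000457). Only Col4a4 was called higher at P1d, at the edge of the threshold (log2 change 0.36 ± 0.13, adjusted p = 0.04999), and that call was lost on leaving out any 1 heart other than P1d replicate 3 or P7d replicate 3 (adjusted p up to 0.152). The ratio of Col4a3 to Col4a4 was 0.853 ± 0.286, 0.457 ± 0.0813 and 0.680 ± 0.0358 at the 3 stages. Every P1d heart lay below all others (exact permutation p = 0.1 against either stage, the smallest that 3 hearts against 3 allow), and E18.5d and P7d overlapped (p = 0.4).

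The third pair, Col4a6 and Col4a5, encodes chains that join in basement membranes such as those of smooth muscle. Col4a5 passed in no comparison and stood at 40.5 ± 2.196, 40.96 ± 3.74 and 42.2 ± 1.8 FPKM. Col4a6 was read at 6.91, 6.38 and 7.03 FPKM at E18.5d, 5.95, 6.78 and 5.37 at P1d and 4.44, 4.48 and 3.88 at P7d. It fell from P1d to P7d (log2 change -0.41 ± 0.09, adjusted p = 0.00655) and from E18.5d (log2 change -0.56 ± 0.09, adjusted p = 0.0011), and the P7d hearts lay below all others. Both genes are X-linked, and both calls of Col4a6 remained with Xist as a covariate.

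Col15a1 and Col18a1 are the multiplexins, collagens with interrupted helices that sit in the outer basement membrane of vessels and muscle. Col15a1 was read at 40.1, 39.1 and 36.5 FPKM at E18.5d, 24.6, 31 and 34.1 at P1d and 112, 118 and 119.8 at P7d, and no groups overlapped. It rose from P1d to P7d by the most of the 37 collagens compared (log2 change 1.94 ± 0.10, adjusted p = 6.92e-06) and stood far above E18.5d (log2 change 1.57 ± 0.10, adjusted p = 6.19e-06). Its small fall by P1d (log2 change -0.37 ± 0.10, adjusted p = 0.0179) was lost without E18.5d replicate 1 or 2 (adjusted p up to 0.0581). Col18a1, the source of the fragment endostatin, stood at 50.2 ± 2.86, 46.8 ± 6.197 and 39.1 ± 1.09 FPKM and was lower by P7d than in the foetal hearts (log2 change -0.35 ± 0.09, adjusted p = 0.0124), a call lost under the median of ratios, quantile normalization and an equal sum of protein-coding nuclear genes. The endothelial markers, 8 of 8 detected, summed to 425 to 461 FPKM before birth, 514 to 567 at P1d and 573 to 594 at P7d. By P1d 4 of them were higher, against 16.7% of all genes, and 1 was lower, against 25.3%. The lower one was Kdr, with means of 62.0 FPKM at E18.5d and 48.0 at P1d. By P7d 6 of the 8 endothelial markers were higher than before birth, Emcn was lower and Tek did not pass. Of the 7 smooth muscle and pericyte markers, 4 were higher by P7d (Rgs5, Abcc9, Kcnj8 and Pdgfrb), Acta2 was lower, and Cspg4 and Myh11 did not pass. Of all genes 11.5% were higher and 34.0% lower from E18.5d to P7d. The part of these cells in the collagen levels was not tested.

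The 3 network collagens were all low. Col8a1, a chain of the type VIII lattice of vessel walls and valves, was read at 1.07, 0.98 and 0.9 FPKM at E18.5d, 1.06, 1.01 and 1.35 at P1d and 2.88, 2.89 and 3.33 at P7d, and rose from P1d to P7d (log2 change 0.92 ± 0.10, adjusted p = 0.000174) and from E18.5d (log2 change 1.02 ± 0.10, adjusted p = 6.12e-05). The other type VIII chain, Col8a2, was read at 3.24, 2.54 and 2.19, 1.1, 1.76 and 1.55 and 1.65, 2.07 and 1.96 FPKM and fell by P1d (log2 change -0.57 ± 0.14, adjusted p = 0.0102). Col10a1, known from the growth plate of bone, was read at 0.58, 0.44 and 0.52, 1.31, 0.78 and 0.96 and 0.98, 0.53 and 0.57 FPKM. All P1d hearts of Col10a1 lay above all E18.5d hearts (log2 change 0.41 ± 0.14, adjusted p = 0.0438), but the call was lost on leaving out any 1 heart other than P1d replicate 2 or P7d replicate 1 (adjusted p up to 0.14), and P7d overlapped both stages. The bone gene Ibsp was at 0 in all 9 hearts.

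Type VI collagen forms beaded filaments beside the basement membrane, and 4 of its 6 genes passed the limit. Col6a1 was read at 119.9, 119 and 105 FPKM at E18.5d, 105, 127 and 104 at P1d and 152, 153 and 155 at P7d, and Col6a2 at 113, 114 and 103, 95.4, 109 and 98.3 and 143, 150.0 and 149. Both had all P7d hearts above all others and rose from P1d to P7d (Col6a1 log2 change 0.45 ± 0.09, adjusted p = 0.00275; Col6a2 log2 change 0.55 ± 0.06, adjusted p = 0.00026) and from E18.5d (Col6a1 log2 change 0.41 ± 0.09, adjusted p = 0.00367; Col6a2 log2 change 0.42 ± 0.06, adjusted p = 0.000771). Col6a3, the chain that completes the molecule with them, was read at 118, 117 and 113, 51.2, 81.9 and 60.5 and 93.1, 94.1 and 91.4 FPKM. It fell by P1d (log2 change -0.86 ± 0.14, adjusted p = 0.000939) and rose by P7d (log2 change 0.55 ± 0.14, adjusted p = 0.0112), with the P7d hearts still below all E18.5d hearts (log2 change -0.32 ± 0.14, adjusted p = 0.0821). In a fit on only the E18.5d and P7d hearts that last difference was called lower. Without P1d replicate 1 or P1d replicate 2 that last difference passed the threshold (adjusted p as low as 0.00386), and the rise by P7d was lost with Xist as a covariate and without the hearts with airway RNA. Col6a6 rose from P1d to P7d (log2 change 0.33 ± 0.07, adjusted p = 0.0063) and from E18.5d (log2 change 0.25 ± 0.07, adjusted p = 0.0178), a call that did not hold on leaving out P7d replicate 1 or either of E18.5d replicates 2 and 3 (adjusted p up to 0.068).

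The fibril-associated collagens coat fibrils and link them to other matrix. Col12a1, found on type I fibrils of tissue under load, was read at 38.5, 35.9 and 33.1 FPKM at E18.5d, 17.1, 19.8 and 16.4 at P1d and 13.03, 13.1 and 14.4 at P7d. No groups overlapped. It fell by P1d (log2 change -0.98 ± 0.09, adjusted p = 3.8e-05) and again by P7d (log2 change -0.37 ± 0.09, adjusted p = 0.00812). The second fall was lost when the columns were scaled to an equal sum. On the scale of log2(FPKM + 1) its fall over the whole interval, close in size to that of Col23a1, was the largest of the 37 (log2 change -1.35 ± 0.09, adjusted p = 4.97e-06). As a ratio of mean FPKM, P7d over E18.5d, Col12a1 stood at 0.376, above Col23a1 at 0.294 and Col2a1 at 0.241. Col14a1, which binds the same fibrils, stood at 69.6 ± 4.57, 58.9 ± 12 and 105 ± 1.45 FPKM and rose from P1d to P7d (log2 change 0.85 ± 0.12, adjusted p = 0.00059) and from E18.5d (log2 change 0.59 ± 0.12, adjusted p = 0.00317).

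Type IX collagen coats cartilage fibrils and has 3 chains. Col9a3 was read at 1.58, 2.01 and 1.25 FPKM at E18.5d, 0.3, 0.5 and 0.36 at P1d and 0.88, 0.76 and 0.43 at P7d, fell by P1d (log2 change -0.91 ± 0.15, adjusted p = 0.00119) and was still lower at P7d (log2 change -0.63 ± 0.15, adjusted p = 0.00742). Every E18.5d heart of Col9a3 stood above every later heart. Col9a1 fell in all 3 comparisons (log2 change -0.75 ± 0.09, adjusted p = 0.000254 from E18.5d to P7d), and its fall from P1d to P7d was lost without P7d replicate 1 (adjusted p = 0.0706). That fall was also lost under quantile normalization, an equal column sum and an equal sum of protein-coding nuclear genes. Col9a2 passed in none (log2 change -0.11 ± 0.13, adjusted p = 0.51). Col16a1 fell by P1d (log2 change -0.44 ± 0.11, adjusted p = 0.0125) and rose by P7d (log2 change 0.36 ± 0.11, adjusted p = 0.0329), and the rise was lost on leaving out E18.5d replicate 2, either of P1d replicates 1 and 3 or either of P7d replicates 1 and 3 (adjusted p up to 0.115).

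All 3 membrane-spanning collagens tested were lower at P7d than at P1d, against 26.4% of all genes. Col23a1 was read at 5.93, 5.73 and 5.59 FPKM at E18.5d, 6.21, 6.58 and 5.4 at P1d and 1.57, 1.56 and 1.95 at P7d. The P7d hearts lay far below all others, while E18.5d and P1d overlapped. The fall from P1d (log2 change -1.39 ± 0.09, adjusted p = 1.69e-05) was the largest of any collagen in that comparison, and the level was as far below E18.5d (log2 change -1.33 ± 0.09, adjusted p = 8.95e-06). Col13a1, which acts at the junction of nerve and skeletal muscle, fell from 2.52, 2.26 and 2.31 FPKM at P1d to 1.16, 0.85 and 0.71 at P7d (log2 change -0.82 ± 0.11, adjusted p = 0.000381). Col25a1, known from nerve, fell from P1d to P7d (log2 change -0.53 ± 0.13, adjusted p = 0.00957), a call lost with Xist as a covariate.

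Of the remaining collagens, Col26a1 and Col28a1 rose by P1d. Col26a1 was read at 3.32, 2.67 and 3.25 FPKM at E18.5d and 4.11, 5.42 and 5.53 at P1d (log2 change 0.56 ± 0.12, adjusted p = 0.00502), and stayed above E18.5d at P7d (log2 change 0.64 ± 0.12, adjusted p = 0.00219). Col28a1, described around peripheral nerve, was read at 0.15, 0.28 and 0.13 FPKM at E18.5d, 0.98, 1.05 and 0.51 at P1d and 0.61, 0.57 and 0.5 at P7d. It rose by P1d (log2 change 0.63 ± 0.14, adjusted p = 0.00573). It passed the limit only through the P1d hearts, where it is high, and with no limit the rise stood at adjusted p = 0.00641. Its call from E18.5d to P7d (log2 change 0.40 ± 0.14, adjusted p = 0.0414) was lost without E18.5d replicate 1 or 3 or without any 1 of the P7d hearts (adjusted p up to 0.103).

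Leaving out 1 heart also brought some collagens past the threshold. Without P1d replicate 2, Col14a1 (adjusted p = 0.00137) and Col6a2 (0.0418) were lower at P1d than before birth and Col5a2 was higher by P7d (0.0461). Without P1d replicate 1, Col18a1 (0.0047) and Col9a2 (0.0232) were lower at P7d than at P1d. Col25a1 was lower by P7d than before birth without P1d replicate 2 or 3 (adjusted p as low as 0.0159), and Col28a1 was lower at P7d than at P1d without P1d replicate 3 (0.0343). The P1d hearts enter the comparison of P7d with E18.5d only through the spread shared by the fit. In a fit on only the E18.5d and P7d hearts Col25a1 was called lower at P7d.

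The 7 collagens under the limit were not tested. Col7a1 of the skin's anchoring fibrils stood at 0.26 to 0.62 FPKM, Col17a1 of the epidermal hemidesmosome at 0.2 to 0.76, and Col22a1 of muscle and tendon junctions at 0.08 to 0.54. Col22a1 was read at 0.23, 0.54 and 0.23 FPKM at E18.5d, 0.08, 0.08 and 0.1 at P1d and 0.49, 0.39 and 0.48 at P7d, with every P1d heart below every other. Col19a1 stood at 0.04 to 0.15 FPKM. Col6a4, Col6a5 and Col20a1 were highest in P1d replicate 2, at 0.28, 0.53 and 0.6 FPKM, and were at most 0.04, 0.26 and 0.22 in the other hearts.

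Ratios were taken between chains of 1 molecule or of related molecules. The ratio of Col3a1 to Col1a1 stood at 2.82 ± 0.0952 (SD, n = 3) in the E18.5d hearts, at 3.54 ± 0.152 in those of P1d and at 3.99 ± 0.0645 in those of P7d. The ratio of Col4a1 to Col4a2 was 2.45 ± 0.0680, 2.25 ± 0.0630 and 2.00 ± 0.0832 at the same stages, and that of Col4a5 to Col4a6 was 5.98 ± 0.218, 6.80 ± 0.197 and 9.90 ± 0.487. In each of these the hearts of the 3 stages did not overlap, which gives the smallest p that the exact permutation test allows, 0.1 (two-sided).

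The ratio of Col6a3 to Col6a1 stood at 1.01 ± 0.0563 in foetal hearts and at 0.571 ± 0.0776 at P1d, with 0.606 ± 0.0154 at P7d and the last 2 stages overlapping (exact permutation p = 0.6). Col6a1 to Col6a2, the other pair of the same molecule, stood at 1.04 ± 0.0228, 1.11 ± 0.0550 and 1.04 ± 0.0211. Col1a2 to Col1a1 was 1.33 ± 0.0627 at E18.5d and 1.36 ± 0.00872 at P7d (exact permutation p = 0.6), and 1.49 ± 0.0396 at P1d, where every heart stood above the others. Col15a1 to Col18a1 stood at 0.770 ± 0.0180, 0.637 ± 0.0227 and 2.99 ± 0.182, and Col8a1 to Col8a2 at 0.376 ± 0.0413, 0.803 ± 0.204 and 1.61 ± 0.190. In these last 2 pairs too, no stages overlapped. The same held for Col5a1 to Col5a2, at 1.03 ± 0.0230, 0.786 ± 0.0133 and 0.982 ± 0.00770, and for Col5a3 to Col5a1, at 0.0427 ± 0.00427, 0.0578 ± 0.00755 and 0.103 ± 0.00251. Within a heart a ratio does not depend on how the column was scaled, and FPKM ratios are per length of transcript.

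**Figure D4:**
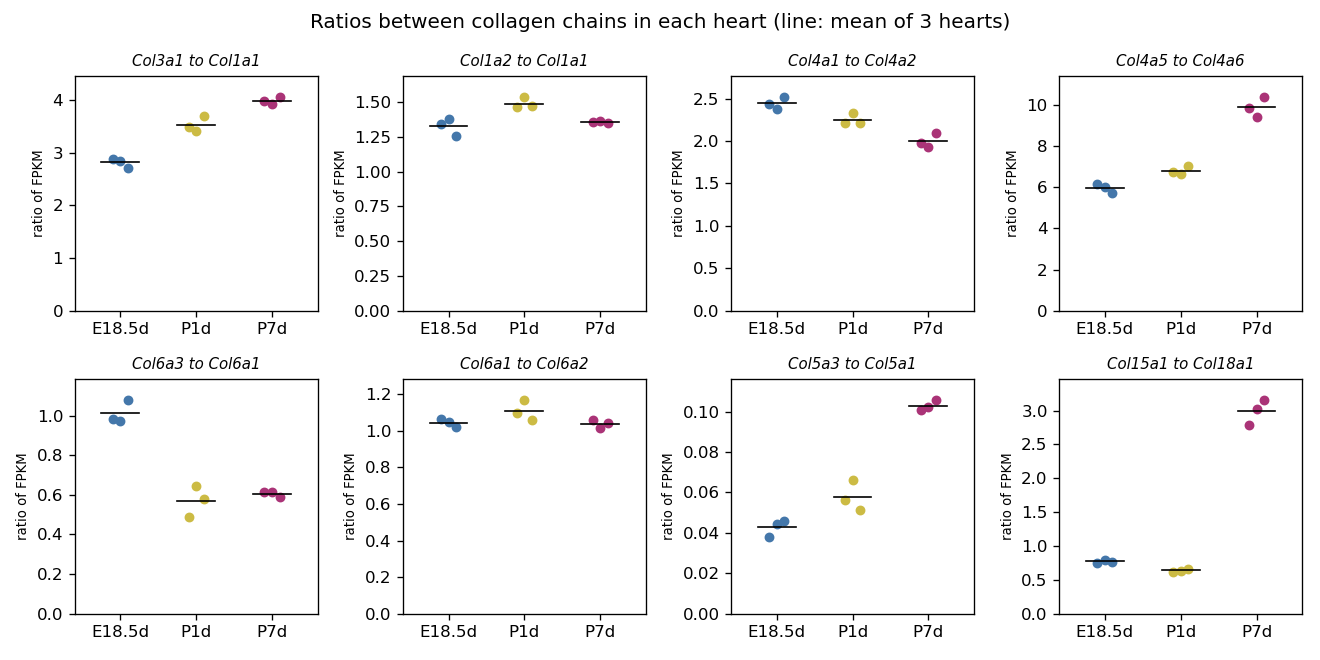
Ratio of FPKM between 8 pairs of collagen genes in each heart (points), with the mean of 3 hearts as a line, from 0 on each axis. Col3a1 to Col1a1 and Col4a5 to Col4a6 have higher points at each later stage, Col6a3 to Col6a1 is lower at both later stages, and Col6a1 to Col6a2 stays between 1.02 and 1.17 in every heart.

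The genes that make, assemble, bind and degrade collagen were read alongside, as 7 lists with 61 of 65 genes above the limit. By P1d, 6 of the 61 rose and 20 fell, 42.6% called against 42.1% of all genes, which is near the background. From P1d to P7d 26 rose and 9 fell, 57.4% called against 40.3% of all genes. Under the median of ratios 33 rose and 6 fell, with 3133 of all genes higher and 2807 lower. From E18.5d to P7d 19 rose and 22 fell, 67.2% called against 45.5% of all genes. Under the median of ratios 21 rose and 12 fell, with 3091 of all genes higher and 2904 lower. The counts of single lists below can be read against 16.7% of all genes higher and 25.3% lower by P1d, and 11.5% higher and 34.0% lower from E18.5d to P7d. The enzymes that hydroxylate and glycosylate the chains gave 0 higher and 9 lower of 14 by P1d. P4ha1, a subunit of prolyl hydroxylase, went from 36.05 ± 1.39 FPKM to 8.403 ± 0.509 at P1d and 16.4 ± 1.47 at P7d (log2 change -1.98 ± 0.08, adjusted p = 6.76e-07 by P1d), and P4ha3 was also lower by P7d than in the foetal hearts (log2 change -1.13 ± 0.13, adjusted p = 0.000132).

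The folding and export list gave 1 higher and 5 lower of 9 by P1d. Serpinh1, the collagen chaperone, went from 374 ± 8.28 FPKM to 166 ± 12.6 and 284 ± 1.52 (log2 change -1.17 ± 0.06, adjusted p = 3.05e-06 by P1d; log2 change 0.78 ± 0.06, adjusted p = 3.33e-05 from P1d to P7d). Hsp90b1, a general chaperone, and Pdia3, a disulfide isomerase, were lower by P7d than in the foetal hearts (log2 change -0.87 ± 0.08, adjusted p = 5.46e-05; log2 change -0.79 ± 0.07, adjusted p = 2.43e-05). These 2 serve many secreted proteins.

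Of the 8 propeptide cleavage genes, 5 were higher and 1 lower by P7d than in the foetal hearts, with the largest changes in Pcolce2, an enhancer of procollagen cleavage (log2 change 1.35 ± 0.21, adjusted p = 0.000761), and Tll2, a tolloid protease (log2 change 1.28 ± 0.11, adjusted p = 2.57e-05). Tll2 passed the limit only through the P7d hearts, and with no limit its adjusted p was 1.63e-05. Of the 5 cross-linking genes, 2 were higher and 2 lower, with Loxl1 (log2 change 0.79 ± 0.09, adjusted p = 0.000106) and Lox (log2 change -0.60 ± 0.15, adjusted p = 0.0113), both lysyl oxidases, in opposite directions. Of the 9 fibril assembly partners, 5 were higher and 0 lower, including Tnxb (log2 change 0.93 ± 0.09, adjusted p = 6.25e-05) and Lum (log2 change 0.73 ± 0.11, adjusted p = 0.000857), which bind fibrils. Lum and Dcn also stand among the fibroblast markers.

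Among the collagen receptors, 2 were higher and 3 lower of 9 at P7d than at E18.5d, with the largest changes in Ddr1 (log2 change -0.97 ± 0.11, adjusted p = 0.000177), a receptor kinase, and Itga2 (log2 change -0.61 ± 0.12, adjusted p = 0.00242), an integrin chain. Of the 7 collagen-degrading proteases and inhibitors above the limit, 2 were higher and 0 lower, Mmp2 (log2 change 0.56 ± 0.08, adjusted p = 0.00063), a gelatinase, and Timp2 (log2 change 0.34 ± 0.06, adjusted p = 0.00135), its inhibitor. By P1d that list gave 4 higher and 0 lower. Timp4, chosen after its values were seen, was the largest of these (log2 change 1.62 ± 0.24, adjusted p = 0.00068) and fell again by P7d (log2 change -1.799 ± 0.24, adjusted p = 0.000464).

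**Figure D5:**
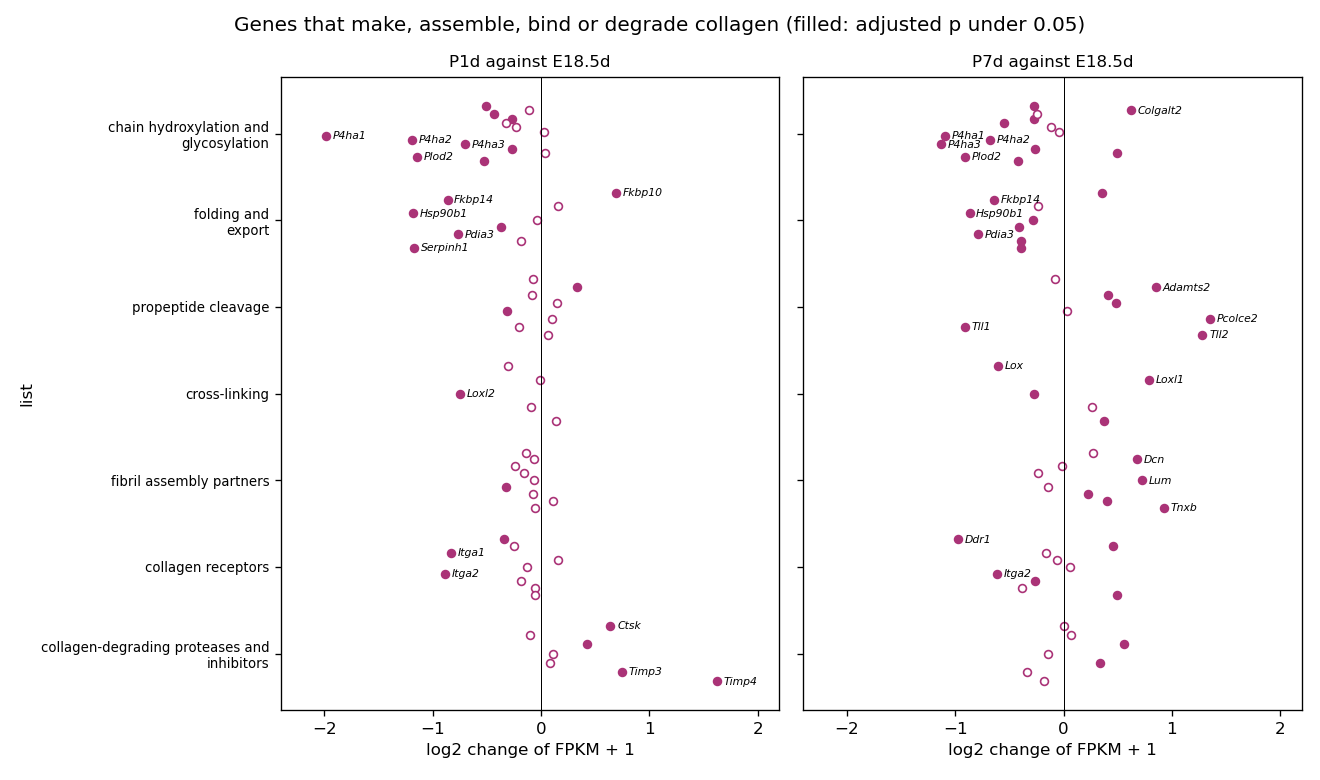
Log2 change of FPKM + 1 for 61 genes in 7 lists of collagen processing, by P1d and by P7d against E18.5d, with filled points past the adjusted threshold and genes beyond 0.6 in either direction named. P4ha1, P4ha2, Plod2, Hsp90b1 and Serpinh1 lie below -1 by P1d, and Pcolce2 and Tll2 lie above 1 at P7d.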

How the data were processed

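RNA of 9 mouse hearts was measured, 3 at each of 3 stages. The authors deposited FPKM values with 2 decimals in 1 table with 1 column per heart, and 0 columns of values belonged to no sample. The submitters' processing notes name STAR and GRCm38 (mm10). The counting tool, its strand setting and the annotation are not given in the sources used here, so overlapping genes on opposite strands cannot be separated; such exonic overlaps covered at most 6.07% of a collagen's exons (Col9a3 with Tcfl5). All 44 collagen identifiers stood in GENCODE M21, 31 in the same version.

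Samples were grouped by the stage in their labels. The members, their classes, 7 lists of 65 collagen-processing genes and 13 lists of 78 cell type markers were chosen with earlier results of these data known. The result of 1 marker list is not reported here. All 37 members past the limit are named. Values of each heart were required for the 3 most abundant fibrillar, basement membrane and other collagens, all network collagens, and the 5 largest called changes per comparison, and are given for further members. Of each processing list, the 2 largest called changes from E18.5d to P7d were named. Serpinh1, Timp4 and P4hb were named outside that rule.

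Genes that averaged 0.5 FPKM or more were tested with limma 3.58.1 (R 4.3.3; lmFit, contrasts.fit, eBayes with trend) on log2(FPKM + 1), all stages in 1 fit, with Benjamini-Hochberg adjustment over 15565 genes. Ratios were compared with two-sided exact permutation tests over hearts (scipy 1.17.1). The fit was tested on simulated data. The p-values measure the spread between hearts. Low FPKM values are multiples of 1 fragment, from which the depth was estimated: 92.4% to 94.6% of low values were whole within 0.2 fragments, where chance gives 40%. At that depth, 3 fragments per kilobase correspond to 0.0702 to 0.124 FPKM, and this covers counting error only. Alternatives were a pseudocount of 0.1, other filters and scalings, a fit without the trend, a replicate block, Xist as a covariate, fewer hearts or stages and a fold limit; leaving out the 3 hearts with airway RNA (Scgb3a2 above 10 FPKM) and scaling to protein-coding nuclear genes were chosen after seeing the data.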

Additional observations from a re-analysis of the deposited data

How the results depend on the processing

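Of the collagen calls, 2 of 4 higher and 5 of 12 lower (P1d against E18.5d), 15 of 19 and 4 of 7 (P7d against P1d), and 13 of 15 and 7 of 10 (P7d against E18.5d) held in all 20 alternatives that remain when the fits on 5 or 6 hearts and the fold limit are set aside, counting as held a gene that a stricter filter left untested. No collagen call changed direction in any alternative, which for the fits on 5 or 6 hearts rests on stages of 1 heart. By P1d, 16 collagens were called (11 to 17 without 1 heart, 7 with Xist as a covariate, 0 in the 5 hearts with Y-linked genes, 3 without the hearts with airway RNA, and 0 with an absolute log2 change of at least 1). The 4 higher became 2 with no filter, 1 at a mean of at least 1 FPKM, 2 at an equal column sum, 2 with Xist, 2 at an equal protein-coding sum, 0 in the 5 hearts, 1 without the airway hearts, 0 at the fold limit and 2 to 3 without 1 heart. The 12 lower became 5 with Xist, 0 in the 5 hearts, 2 without the airway hearts, 0 at the fold limit and 9 to 14 without 1 heart. From P1d to P7d the 26 called (19 higher, 7 lower) became 0 (0, 0) in the 5 hearts and 3 (2, 1) at the fold limit, and 23 to 26 (16 to 19, 6 to 9) without 1 heart. From E18.5d to P7d the 25 called (15 higher, 10 lower) became 0 (0, 0) in the 5 hearts, 6 (4, 2) at the fold limit, and 22 to 30 (13 to 18, 8 to 12) without 1 heart, and the 10 lower became 6 without the airway hearts. Of the processing genes, 26, 35 and 41 were called in the 3 comparisons, 22 to 29, 30 to 39 and 34 to 44 without 1 heart, 6, 0 and 0 in the 5 hearts, and 6, 4 and 4 at the fold limit. Without the airway hearts 12 of them were called by P1d and 24 from E18.5d to P7d. P4hb, not called from P1d to P7d, changed sign and was called higher at an equal protein-coding sum (log2 change 0.15, adjusted p = 0.0372 in limma). The fits on 5 or 6 hearts have fewer samples, and the cause of the other changes was not tested.

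Replicate numbers recur in every stage. Deviations from the stage means of hearts with the same number correlated at -0.04 to 0.10, and those of hearts with different numbers at -0.17 to 0.11. No pairing by number was seen, and with 3 hearts a stage a weak pairing could not be seen. With the replicate block, 16 collagens were called by P1d (3 higher, 13 lower), 25 from P1d to P7d (18 and 7) and 25 from E18.5d to P7d (15 and 10).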

Other observations

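The marker lists of other cell types, none of them collagens, moved as follows. The epicardial and mesothelial markers summed to 56.7 to 69.1 FPKM at E18.5d, 55.3 to 71.0 at P1d and 29.6 to 33.9 at P7d. From P1d to P7d 5 of 6 fell, against 26.4% of all genes. Among these markers Upk3b, a mesothelial membrane gene, was read at 14.2, 16.2 and 17.7 FPKM at E18.5d, 11.97, 15.6 and 11.7 at P1d and 5.78, 6.59 and 7.04 at P7d. The smooth muscle and pericyte markers summed to 777 to 933, 801 to 914 and 811 to 899 FPKM at the 3 stages, mostly Acta2. Acta2 was lower by P7d than in the foetal hearts, while Rgs5, Abcc9, Kcnj8 and Pdgfrb, known from pericytes, were higher, with means of 34.8, 68.0, 10.3 and 24.97 FPKM at E18.5d and 103, 113, 18.9 and 42.8 at P7d. Cspg4 and Myh11 of the same list did not pass, with means of 17.4 and 15.7 FPKM at E18.5d and 16.5 and 13.7 at P7d. The cardiomyocyte markers summed to 27232 to 28916, 33439 to 36866 and 35059 to 36327 FPKM. By P7d 6 of these 8 were higher than in the foetal hearts and 1 lower, against 11.5% and 34.0% of all genes. The brown fat markers, 4 of 4 above 0.5 FPKM, rose by P1d in 3 genes, against 16.7% of all genes. From P1d to P7d 1 of the 4 was higher and 2 were lower, against 13.9% and 26.4% of all genes. They summed to 9.23 to 10.6, 28.7 to 31.5 and 35.7 to 41.2 FPKM, mostly Cidea. The means at the 3 stages were 6.71, 22.3 and 26.7 FPKM for Cidea and 0, 0.453 and 6.62 for Ucp1. They were 2.94, 5.38 and 3.56 FPKM for Pparg and 0.267, 2.37 and 0.947 for Adipoq. Leukocyte markers summed to 10.8 to 12.8, 13.5 to 17.6 and 17.4 to 18.1 FPKM, erythroid markers to 1297 to 3448, 2200 to 4525 and 1402 to 1835 FPKM, and skeletal muscle markers to 8.86 to 9.12, 4.84 to 5.86 and 3.18 to 4.57 FPKM. The bone markers summed to 1.05 to 8.49, 1.54 to 7.06 and 0.37 to 0.89 FPKM, nearly all of it Spp1, and the lung and airway markers to 1.57 to 137, 0.28 to 222 and 0.05 to 0.32 FPKM.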
